A study of Mus musculus with 4 samples.

Results

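The circadian clock of mouse embryonic fibroblasts (MEFs, embryonic connective tissue cells in culture) was examined through 10 genes: the repressors Bhlhe40 and Bhlhe41, the period genes Per1, Per2 and Per3, the PAR bZIP factors Dbp and Tef, the nuclear receptors Nr1d1 and Nr1d2, and Bmal1. All probe sets of the Affymetrix MOE430A array that the platform annotation assigns to exactly 1 of these symbols were taken, with Bmal1 written there under its older symbol. These were 17 of the 22690 probe sets on each array, for 10 of the 12393 genes with such an assignment. The gene set was chosen by the difference between mTert and control signals, since Bhlhe40 had the limma p of rank 9 among all 12396 probe sets tested in that contrast. The mTert differences of the 10 genes are therefore given as a description, with no test.

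The 4 samples were MEFs infected with a retrovirus built on pBabePuro, the puromycin resistance vector that both groups carry. The virus held no insert in the 2 controls and the catalytic subunit of mouse telomerase, mTert, in the 2 mTert samples. The promoter that drove mTert, the number of clones or cultures, the serum, the time since medium change and the hour of harvest are not given in the labels, and their part in the values was not tested. Nothing says whether the 2 arrays of a group came from separate cultures, so a p-value here may not measure a spread between cultures. Within both groups the 2 arrays differed in macrophage markers, as given below, and that difference is part of the spread. An exact two-sided permutation test of 2 against 2 arrays cannot give a p under 0.333, and precision is limited by there being 4 arrays.

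The arrays were near one another in overall signal, with medians between 210.15 and 224.1 and between 51.6% and 54.4% of probe sets called present. The deposited values already had trimmed means between 498.6 and 498.8, so the near medians are no measure of how alike the arrays were. Control 1 was hybridised with 5 µg of labelled cRNA and each other array with 15 µg. The check of the labels came out as follows. Tert was called absent on both controls, at 128 and 84.7, and present on both mTert arrays, at 1164.5 and 845. All 12 fibroblast markers examined, among them Col1a1, Vim and Pdgfrb, were called present on 1 or more arrays. Of 10 epithelial and endothelial markers 7 were not called present on any array. The 11 macrophage markers measured summed to 3178 and 3465.5 on the arrays numbered 1 and to 13524 and 13948 on those numbered 2, in the order control, mTert. In bulk RNA fewer cells of a type and less RNA per cell cannot be told apart.

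In the clock, BMAL1 and CLOCK bind E-boxes and switch on the Per and Cry genes, whose proteins then repress them. BHLHE40 and BHLHE41, also called DEC factors, bind E-boxes too and repress the same targets. The nuclear receptors NR1D1 and NR1D2 (REV-ERBs) repress Bmal1 through ROR elements, while DBP and TEF activate genes through D-boxes. In cultured fibroblasts a serum pulse, glucocorticoid or cAMP induces Per1 quickly and resets the rhythm, and Bhlhe40 responds to serum, hypoxia and TGF-beta as well.

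Signals are in scaled arbitrary units, as mean ± SD of 2 arrays. Differences are on the log2 scale as mTert minus control, with the standard error (SE) of limma's fit. Of the 17 probe sets, 9 were called present on 2 or more of the 4 arrays and were tested. They cover 7 of the 10 genes. The other 8 probe sets were called absent on all 4 arrays, and for Bhlhe41, Per2 and Nr1d1 these were the only ones. For a gene with several tested probe sets the one with the highest mean log2 signal, called the brightest, stands for the gene, and apart from that choice levels of different probe sets are not set against each other.

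Bhlhe40 was the clock gene with the largest difference between the groups among the 7 tested. Its probe set read 2790 and 2710 in the controls and 1762 and 1892 in the mTert samples. The controls lay close together and both mTert samples lay below both of them, so that the groups did not overlap. The means were 2750 ± 56.9 and 1827 ± 91.6, a log2 difference of -0.59 (SE 0.10), or 1.51-fold lower signal in mTert. Within arrays of the same number the difference was -0.66 for number 1 and -0.52 for number 2. Between the 2 controls it was -0.04 and between the 2 mTert samples 0.10. Without control 1, the array with less cRNA, it was -0.57.

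Bhlhe41, the paralog of Bhlhe40, gave 52.8 and 37.5 in the controls and 91.8 and 64.7 in the mTert samples. All 4 calls were absent. No level or fold can be read from a probe set that is not above background in either group.

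Per1, the period gene that responds fastest to serum and cAMP, had signals of 843 and 1066 in the controls and 757 and 682 in the mTert samples. All 4 arrays called it present, and the groups did not overlap. The means were 954 ± 157 and 720 ± 52.8, a log2 difference of -0.40 (SE 0.16), or 1.32-fold lower in mTert. The gap between the nearest arrays, control 1 and mTert 1, was -0.16, and that between control 2 and mTert 2 was -0.64. The size of the difference rested on control 2, the highest array. It was -0.23 without control 2 and -0.57 without control 1.

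Per1 and Bhlhe40 were the 2 of 7 tested genes whose mTert signals both lay below both controls, and 0 of 7 lay above. Over the 7387 genes tested, with 1 probe set per gene, the groups did not overlap in 11.7% with mTert lower and in 13.8% with mTert higher. Since this contrast chose the genes, nothing is read from their count. Over all 12396 probe sets, 0% passed a limma adjusted p of 0.05. Tert, the gene that the mTert virus carried, had the smallest limma adjusted p, 0.188, at a log2 difference of 3.25 (SE 0.26). It did not pass either, so a gene that fails this test is not thereby shown to be unchanged. Without adjustment 105 probe sets stood higher and 156 lower in mTert at a limma p under 0.05.

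The promoter windows bear on these genes because clock and serum signals reach them through short DNA elements. RefSeq windows (GRCm38.p6, 250 bases before to 50 after a start site) were found for 8 of the 10 genes, 11 windows in all, and not for Bhlhe40 or Per2. The elements searched on both strands were the E-box CACGTG, the D-box TTATGTAA, the half-site of ROR elements AGGTCA, the cAMP response element TGACGTCA with its half-site TGACG, which the full element contains, and the CArG box of serum response factor. Per1 has windows at 2 start sites. Both are shown for the E-box and the cAMP half-sites. Capitals mark the elements found.
Per1, chr11:69098699-69098998, + strand: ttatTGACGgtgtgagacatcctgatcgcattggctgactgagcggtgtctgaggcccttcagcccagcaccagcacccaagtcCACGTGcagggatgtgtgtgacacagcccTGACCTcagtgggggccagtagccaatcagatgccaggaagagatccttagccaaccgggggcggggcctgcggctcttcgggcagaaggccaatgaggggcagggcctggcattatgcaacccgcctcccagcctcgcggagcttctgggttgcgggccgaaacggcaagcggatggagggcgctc
Per1, chr11:69099902-69100201, + strand: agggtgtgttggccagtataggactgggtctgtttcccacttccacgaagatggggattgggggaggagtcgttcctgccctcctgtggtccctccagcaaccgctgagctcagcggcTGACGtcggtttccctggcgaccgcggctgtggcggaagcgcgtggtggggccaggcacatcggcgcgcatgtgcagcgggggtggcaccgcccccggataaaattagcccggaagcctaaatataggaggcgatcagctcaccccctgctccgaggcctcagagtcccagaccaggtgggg

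The upstream Per1 window held an E-box 166 bases before the start site, a cAMP half-site at 246 bases and a reverse ROR half-site, TGACCT, at 137 bases. The downstream window held a cAMP half-site at 132 bases and no E-box. Over all 32851 windows in the table, 7.15% held the E-box and 20.8% the cAMP half-site. Of the 11 windows of clock genes, 4 held the E-box and 2 the half-site, both of the latter those of Per1. None of the 11 held the full cAMP response element or a CArG box, which 1.79% and 1.63% of all windows held. A match is a description of letters and shows no binding.

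**Figure D1:**
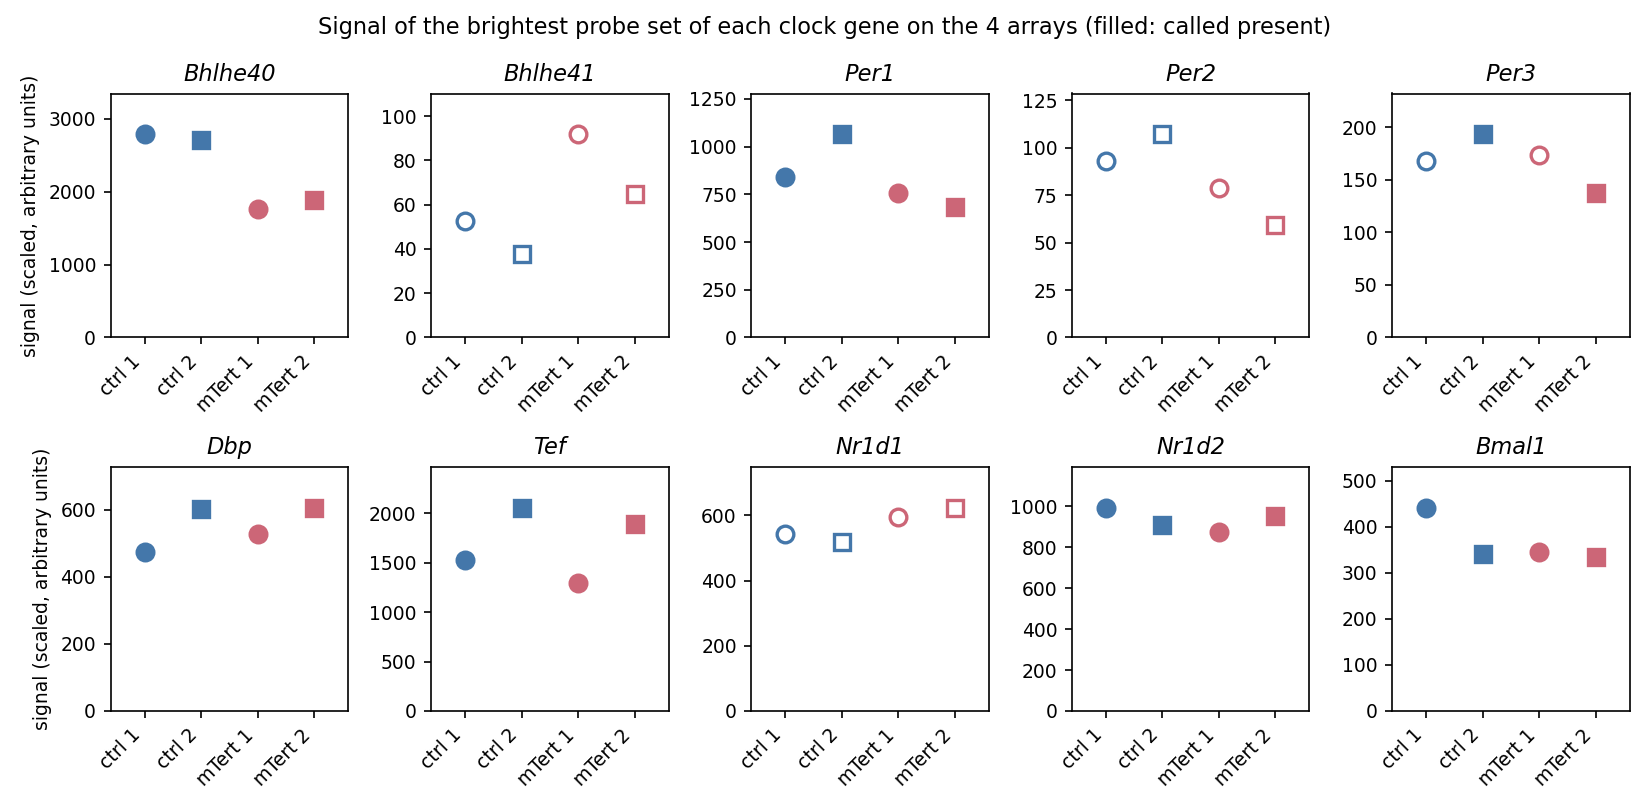
Signal of the brightest probe set of each of the 10 clock genes (vertical axis, scaled arbitrary units from 0, a separate range for each gene) on the 4 arrays, with controls in blue, mTert in red, circles for arrays numbered 1, squares for those numbered 2, and filled symbols for present calls. Bhlhe40 reads 2790 and 2710 in control against 1762 and 1892 in mTert, while Tef separates squares from circles.

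Per2, a period gene with an E-box driven rhythm, was not measured above background. Its probe sets gave 92.9 and 107 in control with 78.8 and 59.5 in mTert, and 23.8 and 37.9 in control with 39.4 and 43.2 in mTert. All calls were absent, and the probe sets lay on opposite sides.

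Per3, the period gene least needed for the rhythm itself, was near the detection limit. Its brightest probe set read 168 and 193 in control and 173 and 137 in mTert, and was called present on both arrays numbered 2 alone. The groups overlapped, with a log2 difference of -0.22 (SE 0.22) that was 0.05 between arrays numbered 1 and -0.50 between those numbered 2. The other tested probe set stood at -0.15 (SE 0.26), with 0.18 and -0.49 in the same order. Both probe sets thus placed mTert 2 lowest. The remaining Per3 probe set was absent on all arrays. Without mTert 2 the difference of the brightest probe set was -0.05.

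The Per3 window is shown because it was the only window of a clock gene with a D-box, the element that DBP and TEF bind.
Per3, chr4:151044616-151044915, - strand: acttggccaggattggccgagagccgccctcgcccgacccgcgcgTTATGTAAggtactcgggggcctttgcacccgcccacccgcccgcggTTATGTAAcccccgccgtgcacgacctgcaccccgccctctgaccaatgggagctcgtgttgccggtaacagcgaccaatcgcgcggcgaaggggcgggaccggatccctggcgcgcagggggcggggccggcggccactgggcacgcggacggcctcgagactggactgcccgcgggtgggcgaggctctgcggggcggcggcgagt

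It held TTATGTAA at 205 and at 158 bases before the start site. A D-box was found in 0.938% of all windows. Of the factors that act on it, the activators DBP and TEF are encoded among the 10 genes and the repressor Nfil3 is described with the other clock regulators.

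Dbp, a D-box activator and a direct output of CLOCK and BMAL1, had its brightest probe set at 475 and 601 in control and 528 and 606 in mTert. The groups overlapped, and the log2 difference was 0.08 (SE 0.17). The other probe set read 423 and 576 in control and 418 and 440 in mTert, a difference of -0.20 (SE 0.19). The probe sets of Dbp therefore lay on opposite sides in this contrast, and their mean was -0.06. On both, control 2 read above control 1.

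Tef, the related D-box activator, read 1528 and 2054 in control and 1292 and 1889 in mTert on its 1 tested probe set. The low arrays were those numbered 1 and the high arrays those numbered 2, in both groups. The mTert difference was -0.18 (SE 0.22), with overlapping groups. It was -0.24 within number 1 and -0.12 within number 2, and in fits that leave out 1 array it ranged from -0.46 without mTert 2 to 0.09 without mTert 1. Both Tef windows held an E-box. The one at the start site farther downstream, with the E-box 138 bases before it, is shown for comparison with Per1.
Tef, chr15:81811164-81811463, + strand: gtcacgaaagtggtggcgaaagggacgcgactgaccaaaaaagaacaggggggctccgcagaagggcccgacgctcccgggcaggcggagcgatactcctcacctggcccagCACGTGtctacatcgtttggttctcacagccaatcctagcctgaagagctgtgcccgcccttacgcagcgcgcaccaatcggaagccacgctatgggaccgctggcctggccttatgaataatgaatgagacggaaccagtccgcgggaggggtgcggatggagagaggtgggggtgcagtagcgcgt

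The repressors of the REV-ERB family showed no separation on a detected probe set. Nr1d1 gave 542 and 517 in control and 595 and 623 in mTert, all with absent calls. Nr1d2 was called present on all arrays, at 994 and 909 in control and 873 and 952 in mTert. Its groups overlapped, at -0.06 (SE 0.13). The sign turned in single comparisons, with -0.19 between arrays numbered 1 and 0.07 between arrays numbered 2. The other Nr1d2 probe set was absent on all arrays.

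Bmal1, the activator that these receptors repress, read 441 and 342 in control and 345 and 334 in mTert, all called present. Control 1 stood above the other 3 arrays, which lay within a narrow range. The log2 difference was -0.19 (SE 0.18) with all arrays and -0.01 without control 1, the array with less cRNA. The part of the cRNA amount in the difference was not tested. The Bmal1 window at the start site farther downstream is shown for its ROR half-site, which the window of the other start site does not reach.
Bmal1, chr7:113207261-113207560, + strand: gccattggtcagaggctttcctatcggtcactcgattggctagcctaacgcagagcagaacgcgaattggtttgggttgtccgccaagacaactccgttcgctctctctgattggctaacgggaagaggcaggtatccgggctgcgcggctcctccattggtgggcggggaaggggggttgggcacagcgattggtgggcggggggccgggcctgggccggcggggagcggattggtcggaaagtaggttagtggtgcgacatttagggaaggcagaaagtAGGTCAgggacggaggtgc

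The half-site AGGTCA lies 31 bases after that start site. Half-sites of this kind were found in 3 of the 11 windows, those of Per1, Nr1d2 and Bmal1, and in 16.3% of all windows.

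Over the 7 tested genes, 6 had a lower and 1 a higher mean in mTert, where 47.5% of all genes tested had a lower one. The count was 4 without mTert 1 and 7 without mTert 2. The median log2 difference was -0.19, against 0.01 over all genes tested. Per array left out, the median ran from -0.33 without control 1 to -0.12 without control 2. Each such fit leaves the numbers unequal between the groups and so mixes in the contrast of number 2 with number 1.

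**Figure D2:**
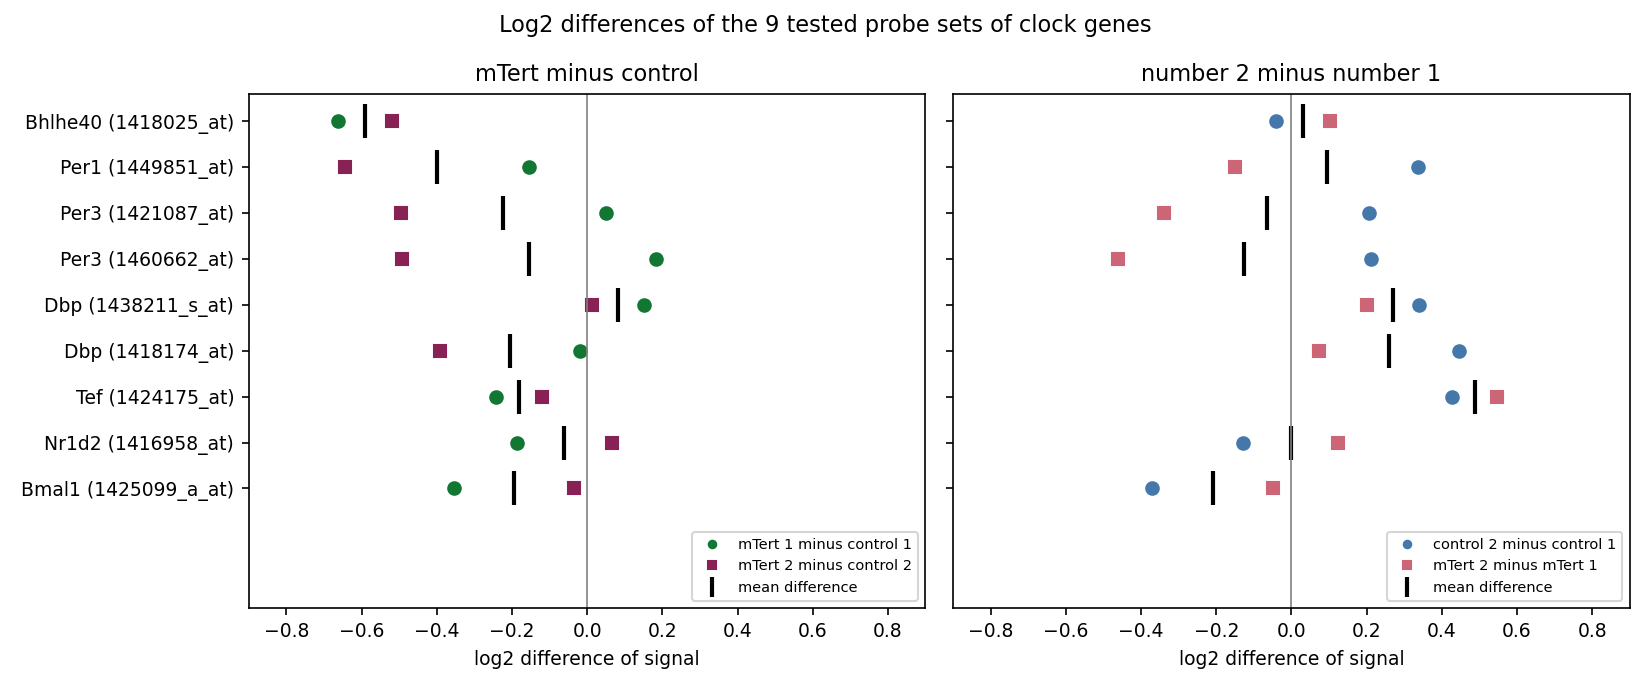
Log2 differences of signal (horizontal axes) for the 9 tested clock probe sets (rows), with mTert minus control on the left for arrays of the same number and number 2 minus number 1 on the right within each group; black bars are the mean differences. For Bhlhe40 both points on the left lie at or below -0.52, and for Tef both points on the right lie at or above 0.43.

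The contrast of arrays numbered 2 with arrays numbered 1 was not used to choose the genes and was tested with the group as a term. Tef was higher on the arrays numbered 2. Its log2 difference was 0.49 (SE 0.12), or 1.40-fold, with 0.43 between the controls and 0.55 between the mTert samples (limma adjusted p = 0.039). It was the 1 of 9 clock probe sets to pass, where 2.8% of the 12396 probe sets did, 214 higher and 133 lower. The call was near the threshold. It ended after quantile normalization (limma adjusted p = 0.058), after scaling by the median (0.085), with no filter on calls (0.071) and with no group term (0.101), and in the fits without control 2, mTert 1 or mTert 2 (limma adjusted p between 0.234 and 0.392). The direction was higher in number 2 in each of those fits.

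Dbp stood on the same side as Tef on both probe sets, with number 2 above number 1 by 0.27 (SE 0.17) and 0.26 (SE 0.18), and did not pass (limma adjusted p = 0.714 and 0.772). Bmal1 stood at -0.21 (SE 0.19, limma adjusted p = 0.877). The 2 tested probe sets of Per3 stood at -0.07 (SE 0.25) and -0.12 (SE 0.28). Bhlhe40 at 0.03 (SE 0.11) and Nr1d2 at -0.0019 differed little, and Per1 stood at 0.09 (SE 0.16). The macrophage markers moved with the same contrast. All 11 measured passed the test as higher in number 2, with a median of 2.09. Of these, Tyrobp, Fcer1g, Cd14 and Mpeg1 were called present on the arrays numbered 2 alone. They met the filter only through the arrays where they are high, so for them the test was not independent of the filter. Their differences start from signals called absent. Itgam and Aif1 were not called present on any array. Lyz2, a lysozyme gene, stood at 2.22 (SE 0.12) in this contrast, Mpeg1 at 3.98 (SE 0.24), Adgre1 at 1.37 (SE 0.16) and Cd68 at 2.09 (SE 0.18). Of the endothelial receptor genes Tek stood at 0.94 (SE 0.27, limma adjusted p = 0.092) and Kdr at 0.24 (SE 0.21, limma adjusted p = 0.868), and neither passed. Of the 12 fibroblast markers 1 was called higher in number 2, S100a4 at 0.36. The 3 called lower were Thy1 at -0.68, Dcn at -0.51 and Fap at -0.94. Of all 12396 probe sets 2.8% passed in this contrast. The part of the cell type markers in the Tef and Dbp values was not tested.

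The other regulators of the clock were read from a list of genes, of which 24 were on the array and 20 were tested. In mTert 6 of the 20 stood higher and 14 lower, with a median of -0.11 (between -0.16 and -0.08 with 1 array left out), and none passed the limma test. The groups did not overlap in 6 of them with mTert lower and in 1 with mTert higher, where 11.7% and 13.8% of all genes tested did so. Nfil3, the D-box repressor that opposes DBP and TEF, had 860 and 963 in control and 568 and 626 in mTert. Both mTert samples lay well below both controls, at a log2 difference of -0.61 (SE 0.14). Usp2, a deubiquitinase with a circadian transcript, stood at -0.68 (SE 0.34), a difference made mostly by mTert 2. That array read 55.6 and was called absent, against 100.1 in mTert 1 and 117 and 122 in the controls.

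Btrc, an F-box protein that targets PER proteins for degradation, lay on the other side, with 292 and 258 in control and 354 and 352 in mTert, a difference of 0.36 (SE 0.16). Rora, the activator that competes with REV-ERBs at ROR elements, stood at -0.32 (SE 0.27), with mTert 2 at 230.5 and the other 3 arrays between 375 and 395. Clock and Cry1, named for their place in the core loop and after their values were seen, had overlapping groups at 0.16 (SE 0.23) and -0.25 (SE 0.24). Cry2, Npas2 and Rorb were not called present on any array. Known outputs of the clock, 10 genes tested, had a median of -0.0030 with 4 higher and 6 lower, and single arrays left out moved it between -0.09 and 0.06. Among them Myc stood at -0.52 (SE 0.16), Vegfa at -0.28 (SE 0.15), Cyp2e1 at 0.27 (SE 0.37) and Tspan4 at 0.15 (SE 0.19). Vegfa was called present on the controls alone and so met the filter only through them.

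Genes that share inputs with Bhlhe40 and Per1 were described in the same way, and none passed the limma test in any of these lists. All gene lists in this report were chosen with earlier results of these data known, so nothing is read from their counts. The CREB, glucocorticoid and hypoxia lists also hold regulators of these responses, among them Creb1, Crebbp, Nr3c1 and Hif1a. Of the immediate-early genes induced by serum, 29 of 32 stood lower in mTert, with a median of -0.45, and in 25 the mTert signals both lay below the controls, where 11.7% of all genes tested did so. In 2, Fosl2 at 0.33 (SE 0.16) and Plaur at 0.20 (SE 0.15), named after their values were seen, both lay above, as in 13.8% of all genes tested. Egr2 stood at -1.07 (SE 0.16) and Klf10 at -1.00 (SE 0.12). Of the 14 genes responsive to cAMP and CREB, 12 stood lower, with a median of -0.46, and 11 were lower without overlap and 0 higher without overlap, beside the same 11.7% and 13.8%. Nr4a1, at -0.81 (SE 0.11), and Junb, at -0.86 (SE 0.12), belong to both lists, as do the antiproliferative gene Btg2, at -0.78 (SE 0.11), and the orphan nuclear receptor gene Nr4a2, at -0.64 (SE 0.16). The lists share 9 genes, which are 64.3% of the CREB list and 28.1% of the serum list.

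Of the 12 genes responsive to glucocorticoid, 10 stood lower, with a median of -0.19 that was -0.09 without mTert 2 and -0.29 without mTert 1. Errfi1, an inhibitor of EGF receptor signalling, stood at -0.59 (SE 0.14), Klf9 at -0.40 (SE 0.09), Dusp1 at -0.34 (SE 0.09) and Cdkn1c at -0.29 (SE 0.29). Tsc22d3, a glucocorticoid-induced leucine zipper gene named after its value was seen, stood at -0.01 (SE 0.17). Hypoxia-responsive genes were spread around 0, with 9 higher, 7 lower and a median of 0.01 over 16, which was -0.07 without mTert 2, -0.04 without control 1 and 0.08 without control 2. Ddit4 stood at 0.37 (SE 0.21), Ero1a at 0.19 (SE 0.16), Car9 at -0.22 (SE 0.33) and Vegfa, which the list shares with the clock outputs, at -0.28.

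A list of helix-loop-helix factors, other E-box proteins and further partners of Bhlhe40 and Bhlhe41 had a median of -0.14 over 18 genes, 13 of them lower in mTert. It includes Hdac1 and Rxra, which are not E-box proteins. In 7 the groups did not overlap with mTert lower and in 0 with mTert higher, beside 11.7% and 13.8% of all genes tested. The median was -0.06 without control 1, -0.22 without control 2 and -0.09 without mTert 2. Hey1, an E-box repressor downstream of Notch, had 1517 and 1524 in control and 1115 and 880 in mTert, a difference of -0.62 (SE 0.15). Id1 and Id2, which block helix-loop-helix factors from DNA, both stood at -0.45 (SE 0.13 and 0.15). Hey2 stood at -0.85 (SE 0.81), with signals between 10.5 and 57.6 and overlapping groups.

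**Figure D3:**
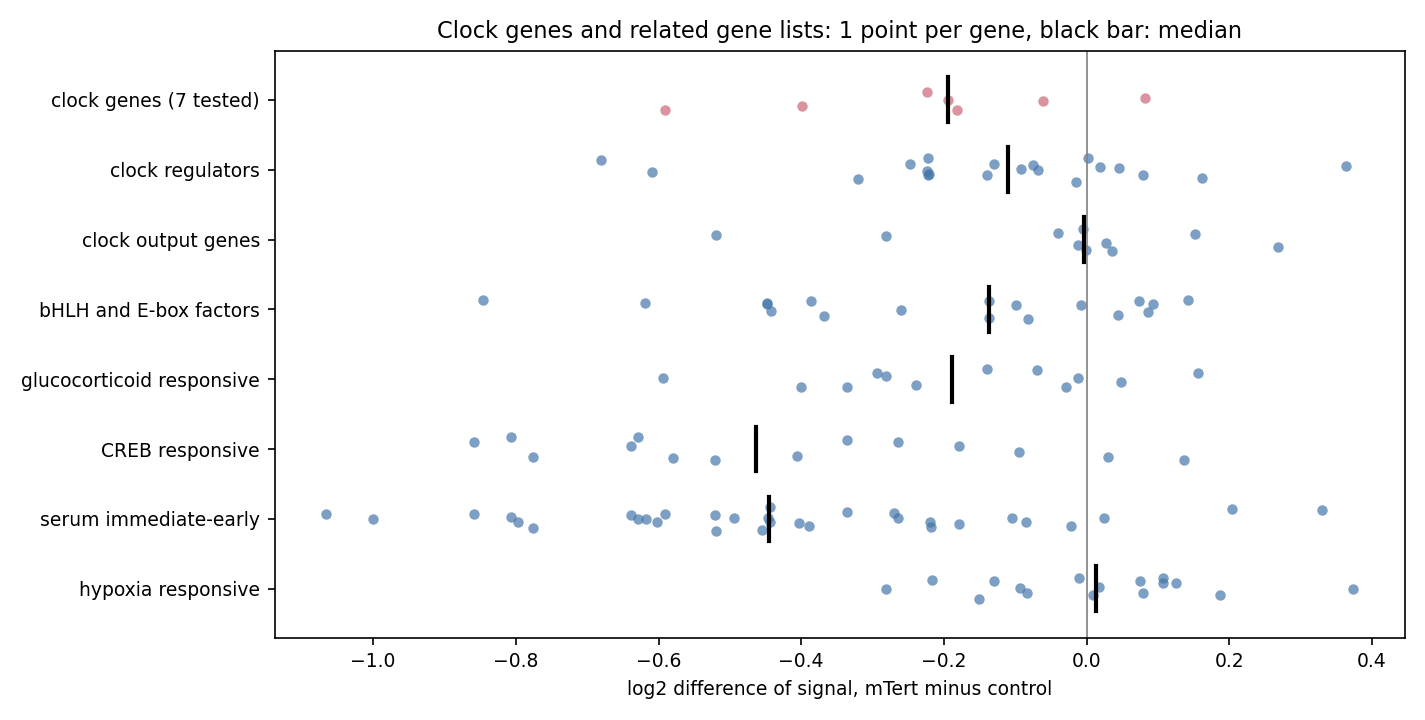
Log2 difference of signal, mTert minus control (horizontal axis), of each gene in the 7 tested clock genes (red) and 7 related lists (blue), with 1 point per gene and a black bar at the median; the vertical spread within a list carries no value. The medians of the CREB and serum lists lie at -0.46 and -0.45, that of the clock genes at -0.19 and that of the hypoxia list at 0.01, whose sign turned with single arrays left out.

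The genes most like Bhlhe40 across the 4 arrays were sought among 7266 genes by the Euclidean distance between log2 signals centred on each gene's own mean. The median distance was 0.66. The nearest was Septin10 at 0.02, then Mycbpap at 0.08, Pcdh10 at 0.09, Ofd1 at 0.10 and Klf4 at 0.12. Septin10 and Mycbpap were called present on the controls alone, at control means of 207 and 63.6, and the control means of Pcdh10 and Ofd1 were 104 and 85.2. Klf4, a Kruppel-like factor induced by serum, was called present on all arrays, at 4451 and 4618 in control and 3098 and 3342 in mTert. With 4 arrays many genes come near any given pattern, and this order is a description.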

How the data were processed

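RNA of 4 MEF samples was read on Affymetrix MOE430A arrays, 1 array per sample, with groups and numbers read from the titles. Per the file headers, the deposited values are linear intensities, 1 per probe set, with a present, marginal or absent call and a deposited detection p-value. No source used here names the summarising software. The deposited series table held the same intensities (largest difference 0).

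Signals were scaled to a common mean after trimming 2% at each end, the 1 zero signal was raised to the array's dimmest present signal, and log2 values were taken. The 64 control probe sets and those present on fewer than 2 arrays were left out, leaving 12396. The platform annotation gave 1 symbol to 20393 probe sets, several to 691 and none to 1606. The platform names Bmal1 as Arntl.

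Contrasts were fitted with limma 3.58.1 in R 4.3.3 (lmFit, eBayes with an intensity trend), with Benjamini-Hochberg adjustment over all 12396 probe sets at 0.05, and the step was tested on simulated data. mTert against control had no other term, and number 2 against number 1 had the group as a term. Genes and lists were chosen with earlier results of these data known. Of each list the 4 tested genes with the largest absolute mTert difference are named (all where 8 or fewer were tested), and any further gene was picked with its values in view. The genes like Bhlhe40 are the 5 at the smallest distance. Alternatives changed scaling, filter, log offset (50), trend, terms, probe set choice and the arrays used.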

Additional observations from a re-analysis of the deposited data

How the results depend on the processing

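With the title number as a replicate block, limma called 18 probe sets in mTert against control instead of 0. Bhlhe40 was the 1 clock gene among them, in the contrast whose values chose it, so that its place there is a description and no test. Nothing in the labels says that a shared number marks a shared culture. The deviations of same-numbered arrays from their group means correlated at 0.37 across probe sets. In control and mTert alike the macrophage markers summed higher on number 2 (13524 and 13948) than on number 1 (3178 and 3465.5). What else same-numbered arrays share is not given in the labels and was not tested. Under every other alternative run, leaving out arrays included, the count of calls in mTert against control was 0. The Bhlhe40 difference kept its sign in 10 of 10 alternatives, between -0.64 and -0.54. So did Per1, Per3 and Bmal1, while Tef, Nr1d2 and Dbp turned in 2, 2 and 3 of theirs, all with 1 array left out except the mean of the Dbp probe sets. Part of these outcomes was fixed beforehand, since a change of filter or the replicate block cannot alter a difference of means. For Bhlhe40 and Per1, whose groups did not overlap, leaving out 1 array could not turn the sign.

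Number 2 against number 1 gave 347 calls, 192 with no group term, and between 80 and 204 with 1 array left out, in fits that have no group term and fewer samples. Such fits also hold part of the mTert difference. In them the number difference ranged from -0.30 to 0.36 for Bhlhe40, from -0.23 to 0.42 for Per1, from -0.31 to 0.18 for Per3 and from -0.095 to 0.092 for Nr1d2, all of which turned sign. Nr1d2 also turned after quantile normalization, at 0.0027. The cause was not tested. The median mTert difference of the clock genes lay between -0.33 and -0.12 with 1 array left out, and the count of those with a lower mean between 4 and 7 of 7, an alternative chosen after seeing the data, as were those of the list medians. With scaling by the median the hypoxia median was -0.02. Signals near background limit Per3. Absent calls on all arrays leave Bhlhe41, Per2 and Nr1d1 unmeasured.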
